A study of Mus musculus with 10 samples.

Results

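The insulin and insulin-like growth factor (Igf) signalling genes described here are the ligands Igf1 and Igf2, the receptors Insr, Igf1r and Igf2r, and the receptor substrates Irs1, Irs2 and Irs4. They were taken as every probe set annotated to exactly 1 of these 8 symbols, which gave 20 probe sets of 45137 that were no controls, 14 on the array type MOE430A and 6 on MOE430B. The rule itself reads no signal. The 8 genes were chosen by their role in the pathway and with the differences between the groups of these arrays already known, so every difference below is a description, and an adjusted p says only where a probe set falls in a fit across all probe sets.

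The samples were mouse embryos at embryonic day 5.5 from matings of B6SJLF1 with CerlP-GFP animals, a reporter cross in which the anterior visceral endoderm fluoresces; all groups, whole embryos included, share this background. Ad is the anterior distal fragment (the fluorescent endoderm with the epiblast beneath), Pp is the posterior proximal fragment (proximal visceral endoderm and epiblast from the opposite side), and the last group is the intact embryo. On either array type there were 2 arrays for Ad, 2 for Pp and 1 for the intact embryo, all from linearly amplified RNA. Whether replicates were separate embryos is not in the labels, so p-values reflect only how far these arrays spread, which may be technical.

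Igf1 and Igf2 are secreted growth factors that bind the receptor tyrosine kinase Igf1r, and insulin binds the related kinase Insr. The activated receptors phosphorylate Irs adaptor proteins, which recruit phosphoinositide 3-kinase and so switch on Akt. Igf2r, also the cation-independent mannose 6-phosphate receptor, carries no kinase and takes Igf2 to the lysosome; in the mouse Igf2 is expressed from the paternal allele, and Igf2r mainly from the maternal allele after implantation.

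The markers of the dissected tissues followed the labels, with Pp replicate 2 standing apart. Of 12 anterior visceral endoderm genes measured on MOE430A, 12 were higher in Ad and 6 passed the threshold, with a summed signal of 42534 and 36706 in Ad against 19201 and 19239 in Pp. Among these 6, Hesx1 (406 and 409 in Pp) and Fzd8 (396 and 410 in Pp) lay in Pp under 464, the signal of the low-signal filter. That filter takes the mean over arrays, so these calls lean on the Ad arrays, the group being compared. The list was chosen with earlier results of these data known, so it is no independent check. On MOE430B, which carries the probe set of Irs4 that changed, 2 of that list were measured, with summed signals of 1640 and 1144 in Ad, 688 and 780 in Pp, and 1801 in the whole embryo. The 9 extraembryonic ectoderm genes measured on MOE430A summed to 10111 and 9749 in Ad, 9650 and 15311 in Pp, and 15537 in the whole embryo. The decidual stroma list, 18 measured genes on MOE430A, summed to between 17546 and 21442 in the fragments, against 76334 in the whole embryo; 15 of these genes were lower in the fragments, 14 of them past the threshold, and 3 were higher, 0 of them past it. Visceral endoderm genes (16 measured) summed to 90655 to 114947 in the fragments, against 90111 in the whole embryo, and epiblast genes (10 measured) to 45297 to 51523 and 34882. The parietal endoderm genes (7 measured) summed to 25602 and 23957 in Ad, 16496 and 19407 in Pp, and 30034 in the whole embryo. The ectoplacental and giant cell genes (3 measured) summed to 3584 to 4517 in the fragments, against 9146 in the whole embryo. The maternal blood genes (2 measured) summed to 3009 to 3365 and 4400.

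Irs4 was higher in Ad than in Pp, 3.96-fold, and Igf1 was lower in the fragments than in the whole embryo, 4.13-fold, each by 1 probe set of MOE430B. In these bulk samples, more cells that express a gene and more of its RNA in each cell cannot be told apart. The brightest Igf2 probe set was high in Pp replicate 2 and the whole embryo. Its limma adjusted p was 0.505 for Ad minus Pp and 0.154 for fragments minus whole embryo. Neither passed the threshold, which is an adjusted p under 0.05. The receptor genes and Irs1 had no probe set past it. The filter on low signal was passed by 15 of the 20 probe sets, from 7 of the 8 genes.

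In Ad against Pp, 0 of 9 measured member probe sets passed on MOE430A, where 0.169% of 13575 probe sets passed (0.162% higher and 0.00737% lower in Ad), and 0 of the 9 had an unadjusted p under 0.05. On MOE430B 1 of 6 passed, Irs4, where 0.111% of 13506 passed (0.104% higher and 0.0074% lower). The members' median log2 difference was -0.08 on MOE430A and 0.01 on MOE430B, beside -0.03 and -0.01 over all tested probe sets. For fragments against the whole embryo 0 of 9 passed on MOE430A, where 9.78% passed (4.6% higher and 5.19% lower in the fragments), and 3 of the 9 had an unadjusted p under 0.05. On MOE430B 1 of 6 passed, Igf1, where 2.21% passed (0.407% higher and 1.81% lower). The members' medians were -0.21 and -0.06, beside 0.05 and 0.03 over all.

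On the deposited signal, both Ad arrays lay above both Pp arrays for 2 of 9 member probe sets on MOE430A and 2 of 6 on MOE430B, against 32.3% and 28.8% of all tested probe sets. Both Ad arrays lay below both Pp arrays for 1 of 9 and 0 of 6, against 12.2% and 14.6%. All 4 fragments lay below the whole embryo for 7 of 9 and 3 of 6, against 36.8% and 22.7%, and above it for 1 of 9 and 0 of 6, against 22% and 29.4%. Of the 7, 1 Igf1 probe set (1437401_at) passed the filter only through the whole embryo.

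**Figure D1:**
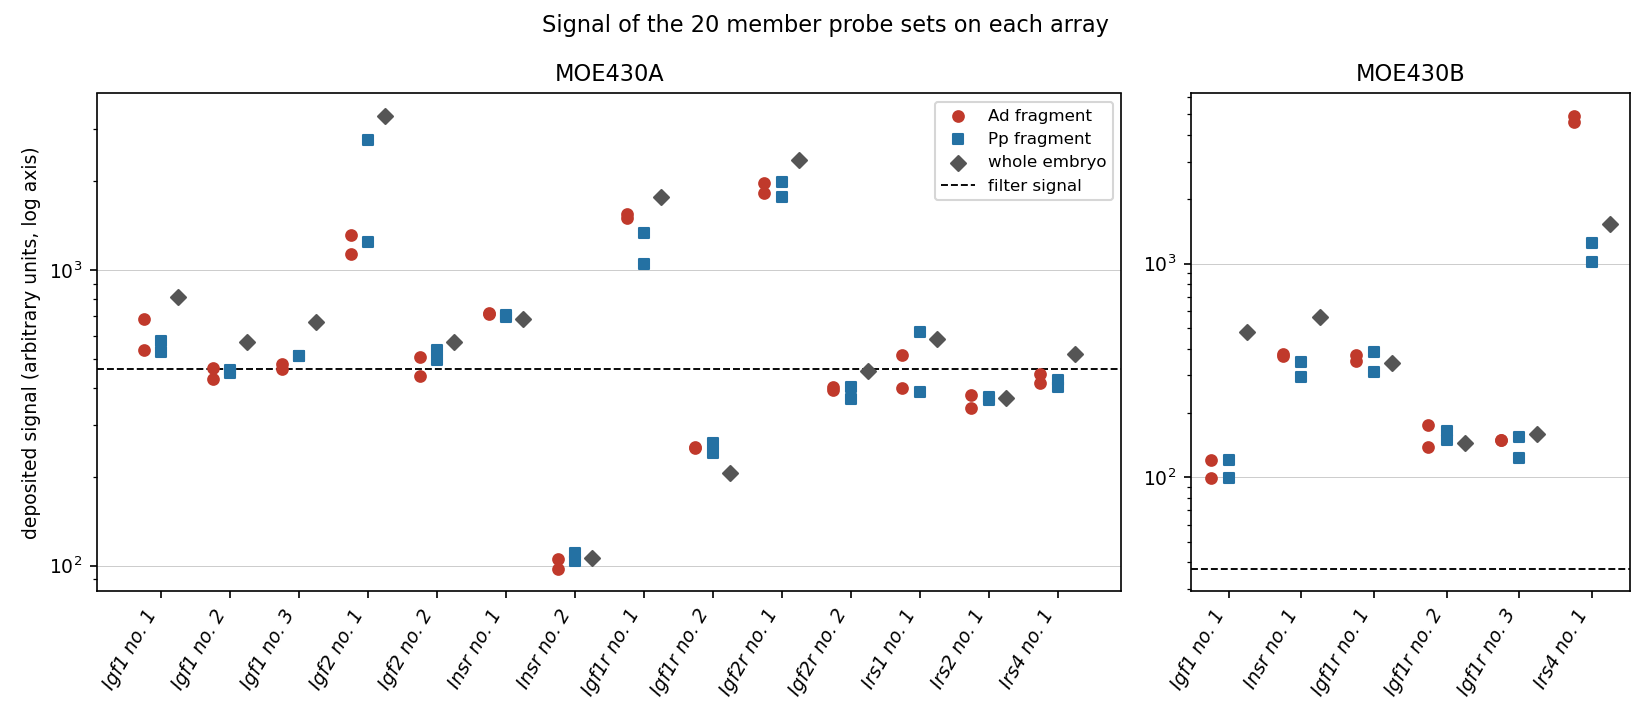
Deposited signal (arbitrary units, log axis) of each of the 20 member probe sets on each array, with Ad as circles, Pp as squares and the whole embryo as a diamond; probe sets of a gene are numbered with the brightest as 1, and the dashed line is the signal at which the filter lies. The Irs4 probe set of MOE430B shows the Ad arrays at 4904 and 4589, above every other array, and the Igf1 probe set of MOE430B shows the whole embryo at 481 above all fragments.

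Igf2 was the ligand that varied most among the fragments. Its brightest probe set (1448152_at, MOE430A) had a signal of 1313 and 1131 in Ad, 1241 and 2755 in Pp (replicates 1 and 2) and 3320 in the whole embryo. Pp replicate 1 fell between the Ad arrays, and Pp replicate 2 lay near the whole embryo. The log2 difference, Ad minus Pp, was -0.60 (95% interval -1.36 to 0.17; limma adjusted p = 0.505). Without Pp replicate 1 it was -1.11 (adjusted p = 3.35e-06), and without Pp replicate 2 it was -0.08 (adjusted p = 0.709), so the value rests on which Pp array is used.

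Some extraembryonic ectoderm markers had the pattern of Igf2. Of the 9 measured on MOE430A, 7 were highest among the fragments in Pp replicate 2. So were 7 of 16 visceral endoderm genes and 2 of 3 ectoplacental and giant cell genes. For epiblast and anterior visceral endoderm genes it was 1 of 10 and 0 of 12. These counts take in steps of any size, and the share over all probe sets was not counted. Eomes, for one, was at 3549 and 3537 in Ad, 3379 and 4001 in Pp and 4080 in the whole embryo. Elf5, a trophoblast transcription factor, was at 340.2 and 296 in Ad, 601 and 2432 in Pp and 2194 in the whole embryo. The signalling gene Bmp4 was at 744 and 605 in Ad, 573 and 2359 in Pp and 1595 in the whole embryo. Others of the list differed from Igf2: Tfap2c was at 1256 and 1052 in Ad, 1295 and 1241 in Pp and 1239 in the whole embryo, and Cdx2 at 1574 and 1689 in Ad, 1074 and 1784 in Pp and 1821 in the whole embryo. Over the marker list 1 of 9 measured genes was positive and 8 negative in Ad minus Pp, 0 passed, and 0 values of the list were at 0 (the lowest was Elf5 at 295.5 in Ad). The part of such tissue in the Igf2 values was not tested. The second Igf2 probe set (1415931_at) was at 507 and 436 in Ad, 495 and 536 in Pp and 570.2 in the whole embryo, with overlapping groups (log2 difference -0.16, adjusted p = 0.491).

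Igf2 was also lower in the fragments than in the whole embryo, without passing. The mean of the 4 fragments was 1610.1 ± 767 (SD, n = 4) against 3320 in the single whole-embryo array, a log2 difference of -0.94 (95% interval -1.79 to -0.08; adjusted p = 0.154). Every fragment lay below the whole embryo. Without Pp replicate 1 the log2 difference was -0.68 and without Pp replicate 2 it was -1.20, and both passed (adjusted p = 7.75e-05 and 1.68e-07). In fits without a Pp array the spread comes from the Ad pair alone.

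Igf1 had the clearest difference between fragments and whole embryo. Its MOE430B probe set (1434413_at) had a signal of 98.8 and 120.0 in Ad, 99.2 and 121 in Pp, and 481 in the whole embryo. The fragments were alike, and the whole embryo stood above all of them. The fragments averaged 110 ± 12.4 (SD, n = 4) and fell below the whole embryo by a log2 difference of -2.05 (95% interval -2.47 to -1.62), a signal 4.13-fold lower (limma adjusted p = 0.00340), and the call held under the 12 alternatives run, with adjusted p between 0.000996 and 0.0337. The whole embryo has 1 array here, so its own spread is unknown and was taken to equal that of the fragments. Between Ad and Pp the log2 difference was -0.08 (95% interval -0.46 to 0.30).

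The 3 Igf1 probe sets of MOE430A were lower in every fragment than in the whole embryo, by less. The brightest (1419519_at) was at 682 and 537 in Ad, 577 and 527 in Pp and 812 in the whole embryo, and the others at 427 to 513 in the fragments against 573 and 666 in the whole embryo. Their log2 differences were -0.28, -0.16 and -0.23 (adjusted p = 0.163, 0.245 and 0.112), and 0 of 3 passed. The fragments of the probe set at -0.16 (1437401_at) averaged 449, under the filter signal of 464. That probe set passed the filter only through the whole embryo. The brightest passed without Pp replicate 1 (adjusted p = 0.0400). In 1 of the 3 (1452014_a_at) both Ad arrays, at 481 and 463, lay below both Pp arrays, at 513 and 511 (log2 difference -0.15, adjusted p = 0.452).

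Markers of decidual stroma, the maternal tissue around the implanted embryo, were for the most part higher in the whole embryo too. On MOE430B the 4 measured genes of that list summed to 298 and 447 in Ad, 436 and 330.2 in Pp and 7634 in the whole embryo, and 4 of 4 were lower in the fragments. Hand2, a stromal transcription factor of the list, was at 110.2 and 144 in Ad, 140.4 and 135 in Pp and 2223 in the whole embryo, and the progesterone receptor gene Pgr was at 80.3 and 78.2 in Ad, 101 and 78.4 in Pp and 991 in the whole embryo. On MOE430A the probe sets of Pgr, Esr1 and Des had log2 differences of 0.06, 0.15 and 0.12 for fragments minus whole embryo, opposite to the rest of that list, and did not pass. Of the list's values on MOE430B 0 were at 0, the lowest being Esr1 at 17.8 in an Ad array, under the filter signal of 37.2. Genes of the list that passed the filter only through the whole embryo were not counted apart. The part of maternal tissue in the Igf1 value was not tested.

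Insr, the insulin receptor, had 3 probe sets that differed in their pattern. On MOE430B (1434446_at) it was at 376 and 371 in Ad, 293 and 346 in Pp and 565 in the whole embryo. The Ad arrays lay above the Pp arrays and all fragments below the whole embryo. The log2 difference was 0.15 for Ad minus Pp (95% interval -0.19 to 0.48) and -0.70 for fragments minus whole embryo (95% interval -1.08 to -0.32; limma adjusted p = 0.0910) and it passed against the whole embryo only without Pp replicate 4 (0.0287). On MOE430A the brighter probe set (1450225_at) was at 714 and 711 in Ad, 702 and 694 in Pp and 684 in the whole embryo. Ad lay above Pp and all fragments above the whole embryo by small steps, and its log2 difference, Ad minus Pp, was -0.05 as centred and 0.02 with no centring. The third Insr probe set (1421380_at) stayed between 97.5 and 110.3 on all arrays, under the filter.

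Igf1r, the receptor of both Igf ligands, had 5 probe sets, 4 of which passed the filter. The brightest on MOE430A (1452108_at) was at 1548 and 1499 in Ad, 1050.4 and 1336 in Pp and 1764 in the whole embryo. Ad lay above Pp without overlap, and the whole embryo above both. Its log2 difference was 0.24 for Ad minus Pp (95% interval -0.03 to 0.50; adjusted p = 0.461) and -0.26 for fragments minus whole embryo (adjusted p = 0.239). It passed in both comparisons without Pp replicate 2 alone (log2 differences 0.39 and -0.33; adjusted p = 0.0233 and 0.00927). The 3 probe sets on MOE430B had log2 differences between -0.08 and 0.03 for Ad minus Pp and between -0.15 and 0.10 for fragments minus whole embryo, with all groups of fragments overlapping. The fifth (1426565_at) lay between 205 and 260 on MOE430A, under the filter.

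Igf2r was even across the fragments. Its brighter probe set (1424111_at) was at 1972 and 1829 in Ad, 1991 and 1772 in Pp and 2362 in the whole embryo. The groups of fragments overlapped and all lay below the whole embryo. The log2 difference was -0.05 for Ad minus Pp (95% interval -0.25 to 0.14) and -0.21 for fragments minus whole embryo (95% interval -0.42 to 0.01; adjusted p = 0.196). The other Igf2r probe set was at 367 to 403 in the fragments, against 455 in the whole embryo, under the filter. One further probe set, annotated to both Igf2r and its antisense transcript Airn, was left out by the rule.

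The promoters of the 3 substrate genes are shown because they share a stretch of letters, while of the 3 genes Irs4 alone had a difference that passed. Irs2 lay under the filter and was not tested, so Irs1 was the only other gene of the 3 that could pass. The sequences below are the 250 bases before the start of each Irs gene in RefSeq, on build GRCm38.p6, read 5′ to 3′ on the gene's own strand (minus in each case), at chr1:82291440-82291689 for Irs1, chr8:11008930-11009179 for Irs2 and chrX:141725218-141725467 for Irs4. Capitals mark CACGTG, the palindromic E-box that basic helix-loop-helix factors read, and the letters GTTTTGC.
Irs1: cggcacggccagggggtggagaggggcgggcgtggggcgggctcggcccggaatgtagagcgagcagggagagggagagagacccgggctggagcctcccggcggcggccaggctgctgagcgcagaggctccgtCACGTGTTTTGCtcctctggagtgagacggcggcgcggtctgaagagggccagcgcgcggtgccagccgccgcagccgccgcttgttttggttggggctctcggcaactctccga
Irs2: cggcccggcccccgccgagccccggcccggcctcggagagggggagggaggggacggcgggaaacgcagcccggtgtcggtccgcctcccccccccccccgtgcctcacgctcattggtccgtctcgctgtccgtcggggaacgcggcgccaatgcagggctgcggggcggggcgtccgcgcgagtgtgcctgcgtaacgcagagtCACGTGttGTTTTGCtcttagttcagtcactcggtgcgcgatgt
Irs4: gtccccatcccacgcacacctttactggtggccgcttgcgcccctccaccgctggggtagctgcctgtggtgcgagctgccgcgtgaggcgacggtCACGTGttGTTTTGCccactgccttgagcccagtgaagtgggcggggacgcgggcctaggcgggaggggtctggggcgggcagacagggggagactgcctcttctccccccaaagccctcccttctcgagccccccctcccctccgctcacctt
In all 3 the E-box and GTTTTGC lie next to each other. They share 1 base in Irs1, where the pair runs from 115 to 104 bases before the start, and are set apart by TT in Irs2 (from 44 to 30 bases) and Irs4 (from 154 to 140 bases).

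The run GTCACGTGTTGTTTTGC was taken as the longest that the upstream windows of Irs2 and Irs4 share. Its matches in these genes were therefore fixed in advance. No other window among 32851 of that length holds it (0.00609% with Irs2 and Irs4 counted). The longest part of the run that Irs1 shares is its first part, GTCACGTGTT, which 0.07% of windows hold on either strand. For comparison, 6.02% of windows hold CACGTG and 3.01% hold GTTTTGC on either strand. Of the other members with a promoter in the table (7 of 8 genes matched, with 10 windows), Igf2r also holds CACGTG, at 2 places, and Igf1, Igf1r and Igf2 hold none. The forkhead letters TGTTTAC and the Otx-type homeobox letters TAATCC occur in 3.17% and 6.25% of windows and in none of the members'. These motifs were chosen after the sequences had been read, and a match is a run of letters, not a shown binding site.

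Irs4, an X-linked adaptor of the insulin and Igf receptors, carried the one difference between Ad and Pp that passed among the members. Its MOE430B probe set (1441429_at) had a signal of 4904 and 4589 in Ad replicates 3 and 4, 1248 and 1022 in Pp replicates 3 and 4, and 1527 in the whole embryo. Both Ad arrays lay above both Pp arrays and above the whole embryo, and the whole embryo lay above both Pp arrays. The mean signal was 4746 ± 223 in Ad and 1135 ± 159.9 in Pp (SD, n = 2 each), a fitted fold of 3.96 (95% interval 3.01 to 5.21; log2 difference 1.98 ± 0.17, SE; limma adjusted p = 0.0147). The anterior visceral endoderm markers given above were higher in Ad as well, 2 of 2 on MOE430B and 12 of 12 on MOE430A. Parietal endoderm markers were higher in Ad for 1 of 2 on MOE430B and 6 of 7 on MOE430A. Epiblast markers were higher in Ad for 2 of 3 and 6 of 10, visceral endoderm markers for 2 of 4 and 7 of 16. Extraembryonic ectoderm markers were higher in Ad for 1 of 2 and 1 of 9. On MOE430B these summed to 1269 and 1262 in Ad, and to 1001 and 1542 in Pp replicates 3 and 4. Of the parietal endoderm, epiblast, visceral endoderm and extraembryonic ectoderm markers, 0 passed the threshold. The part of each tissue's share in the Irs4 value was not tested.

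Leaving out single arrays, the Irs4 log2 difference ranged from 1.81 (without Pp replicate 4) to 2.16 (without Pp replicate 3), while its call did not always hold. The log2 difference was 1.93 without Ad replicate 3 and 2.04 without Ad replicate 4, with limma adjusted p of 0.313 and 0.257 from the spread of the Pp pair alone, and with no filter on low signal adjusted p was 0.130 (range over the alternatives 0.00262 to 0.313). Among the 13506 tested probe sets of MOE430B this difference ranked 11 from the highest. The other Irs4 probe set, on MOE430A (1422248_at), lay under the filter signal of 464 in every fragment, at 447 and 414 in Ad, 403 and 423 in Pp, and at 520 in the whole embryo, with Ad and Pp overlapping. The 2 probe sets thus do not show the same pattern. Against the whole embryo, Irs4 on MOE430B had a log2 difference of 0.59 for the mean of the fragments (adjusted p = 0.192), which passed only without Pp replicate 4 (0.0421); the whole embryo lies between the Ad and Pp arrays.

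Irs1 and Irs2, the widely expressed substrates, had 1 probe set each, both on MOE430A. Irs1 was at 400.3 and 515 in Ad, 616 and 387 in Pp and 585 in the whole embryo, so that the groups overlapped and each pair of replicates spread further than the groups' means differed (log2 difference, Ad minus Pp, -0.14, 95% interval -0.54 to 0.25). Irs2 stayed under the filter on all 5 arrays, at 378 and 341 in Ad, 363 and 371 in Pp and 369 in the whole embryo, and was not tested.

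**Figure D2:**
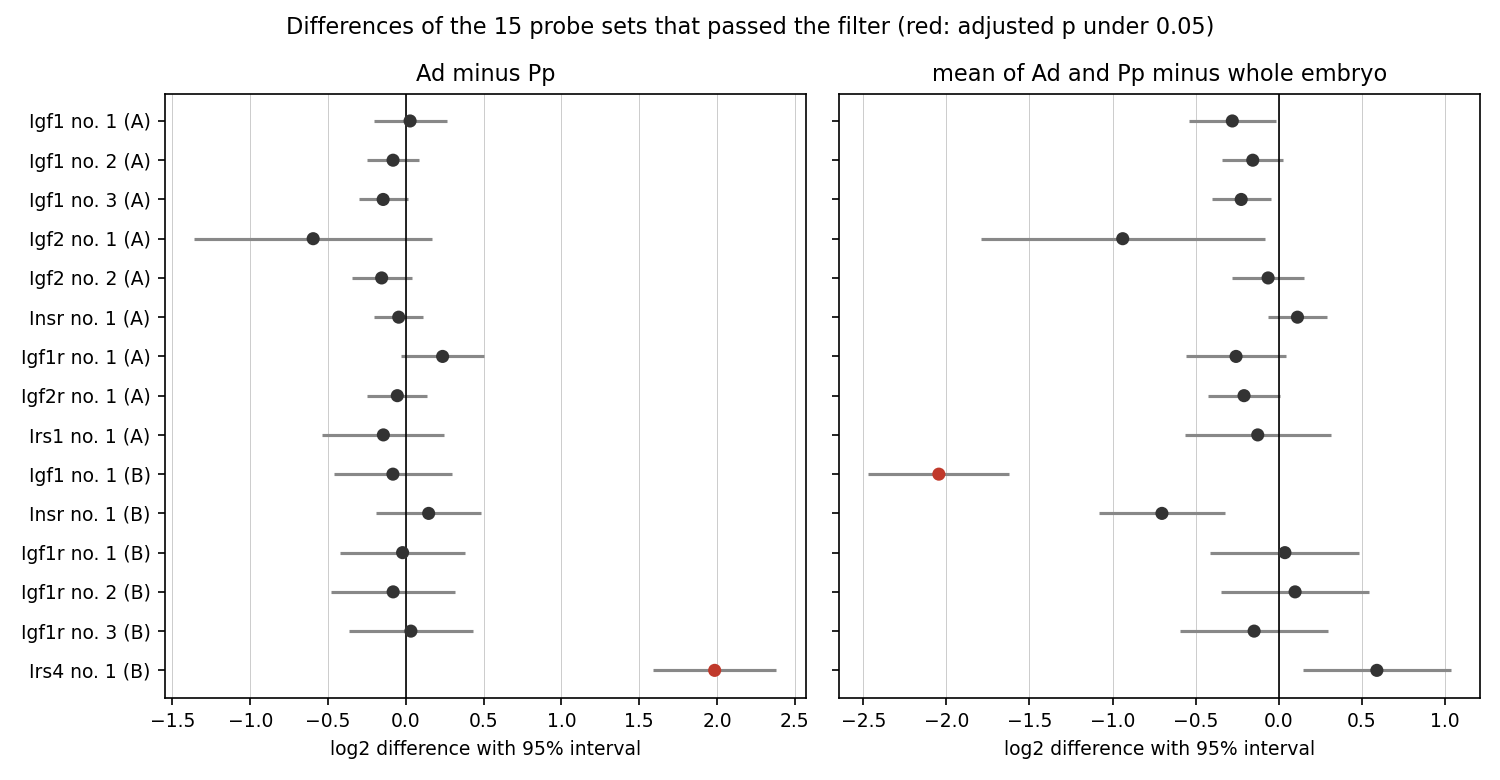
Log2 differences (x axis) with 95% intervals for the 15 member probe sets that passed the filter (y axis, numbered as in the plot of signals, with A or B for the array type), for Ad minus Pp on the left and for fragments (mean of both kinds) minus whole embryo on the right. The 2 probe sets with an adjusted p under 0.05 are Irs4 at 1.98 on the left and Igf1 at -2.05 on the right.

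The 3 members with the largest range over the 5 arrays were Irs4, Igf1 and Igf2, with ranges of 2.21, 2.21 and 1.32 on the centred log2 scale. The genes nearest to Irs4 in pattern were Foxq1, a forkhead transcription factor gene (root mean square log2 difference over 5 arrays 0.139), Dact2, an intracellular modulator of Wnt and Nodal signals (0.221), and Speer4cos (0.230). Foxq1 was at 2219 and 1719 in Ad, 594 and 503 in Pp and 681 in the whole embryo. Nearest to Igf1 were Adm, which encodes the peptide adrenomedullin (0.0545), the phospholipid flippase gene Atp8b1 (0.0704) and the cGMP-dependent kinase gene Prkg2 (0.0746). Adm was at 191 and 246 in Ad, 207 and 258 in Pp and 994 in the whole embryo. Nearest to Igf2 were Gsto1, a glutathione transferase gene (0.0675), the fatty acid binding protein gene Fabp3 (0.0822) and the biliverdin reductase gene Blvra (0.0954). The likeness rests on 5 arrays of 3 groups and is a description.

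**Figure D3:**
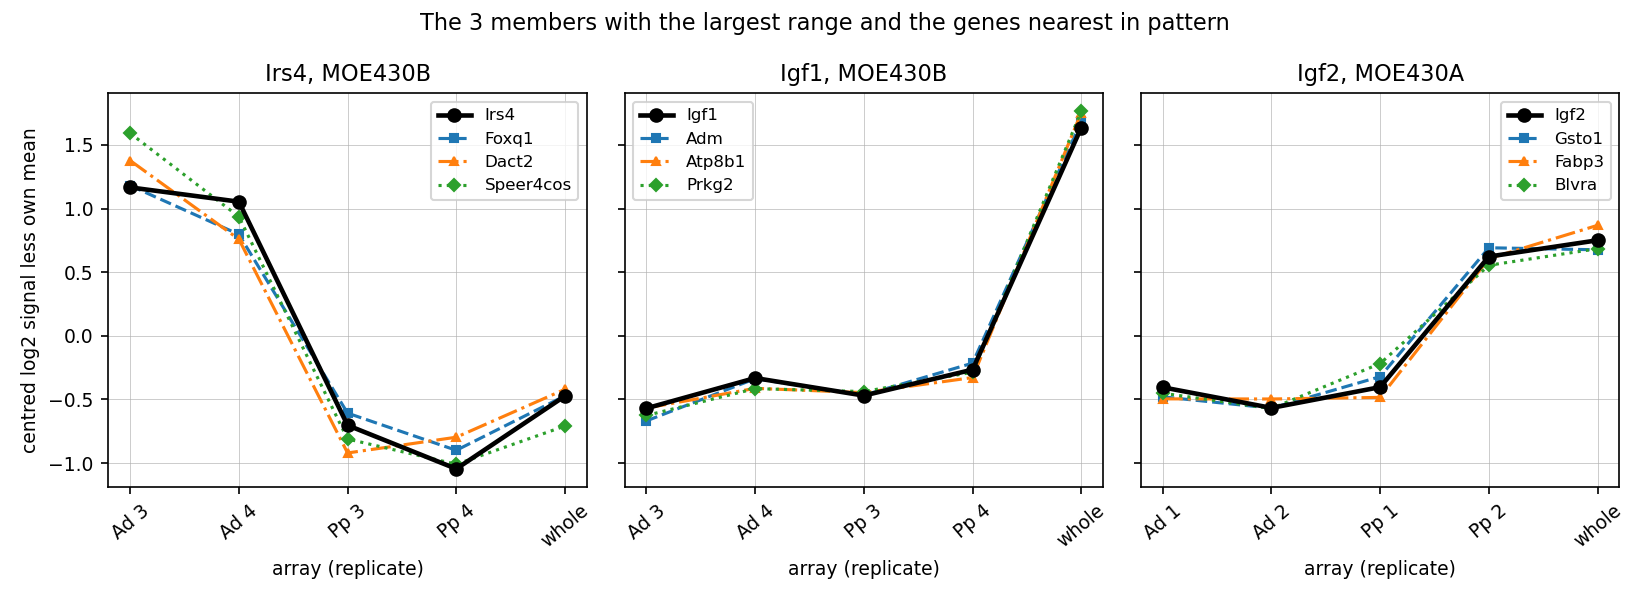
Centred log2 signal, less each probe set's own mean (y axis), on each of 5 arrays (x axis) for Irs4 and Igf1 on MOE430B and Igf2 on MOE430A (black), with the 3 genes nearest to each in pattern. Irs4 is high in both Ad arrays, Igf1 in the whole embryo, and Igf2 in Pp replicate 2 and the whole embryo.

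Other genes of the pathway were read from lists of binding proteins, adaptors, kinases and negative regulators, 94 genes in all, of which 56 were measured on MOE430A and 30 on MOE430B. Between Ad and Pp 0 of 56 and 0 of 30 passed in limma, beside 0.169% and 0.111% of all tested probe sets, with medians of -0.03 and 0.03. The nearest was Grb10, an imprinted adaptor that binds Insr and Igf1r and limits their signalling, at 8883 and 8210 in Ad, 4918 and 5425 in Pp and 9484 in the whole embryo (log2 difference 0.63, adjusted p = 0.0909). Ad lay above Pp without overlap and near the whole embryo; another Grb10 probe set had a log2 difference of -0.04. Grb10 passed with no centring (adjusted p = 0.0474), with crossed pairing of the replicates as a block (0.0461), without Pp replicate 1 (0.00145) and without Pp replicate 2 (0.000356).

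The largest differences of the other lists between Ad and Pp did not pass either. Htra1, a secreted protease that cleaves Igf binding proteins, had a log2 difference of -1.26, with signals of 443 and 421 in Ad, 547 and 2766 in Pp (replicates 1 and 2) and 3131 in the whole embryo. As for Igf2, Pp replicate 2 and the whole embryo were high and the other arrays low, and without Pp replicate 1 its log2 difference was -2.22 (adjusted p = 7.21e-10) and without Pp replicate 2 it was -0.29 (adjusted p = 0.0920). Foxo4, a forkhead factor that Akt keeps out of the nucleus, was at 515 and 434 in Ad, 877 and 943 in Pp and 1122 in the whole embryo (log2 difference -1.01, adjusted p = 0.140), while its MOE430A probe set was at -0.08. The phosphoinositide 3-kinase subunit genes Pik3cb and Pik3r3 had log2 differences of 0.64 and 0.62 on MOE430B, and the adaptor gene Gab2 one of -0.36. Igfbp2 was at 0.27, the Akt-activating kinase gene Pdpk1 at 0.19, and the adaptor gene Sh2b1 at -0.13. Igfbp2 and Pdpk1 passed without Pp replicate 1 alone (log2 differences 0.35 and 0.33, adjusted p = 0.0290 and 0.0369), and the log2 difference of Pdpk1 ranged from 0.041 to 0.33 over single arrays left out. The Igf2 mRNA binding protein gene Igf2bp1 was at 0.19 on MOE430B and -0.0049 on MOE430A. Plagl1, an imprinted zinc finger gene, was at 0.03 on MOE430A and -0.24 on MOE430B.

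Between the fragments and the whole embryo, 8 of 56 pathway genes passed on MOE430A, 2 higher and 6 lower in the fragments, where 9.78% of all tested probe sets passed. On MOE430B 2 of 30 passed, both lower, where 2.21% of all passed. The medians were -0.03 and -0.05. Igf binding protein genes were 4 of the 8 on MOE430A and 1 of the 2 on MOE430B. Igfbp3 was at 284 ± 68.8 in the fragments (SD, n = 4) against 4325 in the whole embryo on MOE430A (adjusted p = 0.000644) and at 135 ± 33.3 against 2071 on MOE430B (adjusted p = 0.00195). Igfbp4 was 4.38-fold and Igfbp7 3.08-fold lower in the fragments (adjusted p = 0.00226 and 0.000511), and Igfbp2 was 2.21-fold higher (adjusted p = 0.00183). Further probe sets of Igfbp4 had log2 differences from -2.78 to -0.11, and a fainter one of Igfbp7 was at -0.10. Gab2 on MOE430B (3.77-fold lower, adjusted p = 0.00313) and Plagl1 on MOE430A (350.0 ± 53.4 against 1354, adjusted p = 0.00269) were lower, though other probe sets of Gab2 (0.09 and -0.01) and Plagl1 (-0.13) were near 0. The decidual stroma sums given above were lower in the fragments too, as were these genes other than Igfbp2. The part of maternal tissue in them was not tested. On MOE430A every fragment value of Igfbp3 and Plagl1 lay under the filter signal of 464. These probe sets, which are among the 8 counted above, passed the filter only through the whole embryo, the group they are compared with.

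Smaller differences passed in 3 negative regulators. Socs2, a suppressor of growth factor signalling, was higher in the fragments on MOE430A (log2 difference 0.60, adjusted p = 0.0259). Its brightest probe set on MOE430B had a log2 difference of 0.16 and did not pass. Grb10 (-0.42, adjusted p = 0.0459) and the ubiquitin ligase gene Nedd4 (-0.36, adjusted p = 0.0371) were lower. These 3 calls ended without Ad replicate 1 (adjusted p between 0.0627 and 0.141) and without Ad replicate 2 (adjusted p between 0.0906 and 0.174), those of Grb10 and Nedd4 also with no pseudocount (0.0686 and 0.0632), and other probe sets of Nedd4 were at 0.08 and 0.09. Akt1, the kinase downstream of the receptors, had a log2 difference of -1.04 (adjusted p = 0.0501). It passed with no centring (0.0366), the stricter filter (0.0392) and an intensity trend (0.0469), and without either Pp replicate (1.22e-05 without replicate 1 and 3.18e-07 without replicate 2). Igf2bp3 was at 0.81, the ribosomal protein gene Rps6 at 0.32, Airn at 0.29, Pik3r3 at 0.18, Igf2bp1 at -0.08 on MOE430B and Sh2b3 at -0.60, none of which passed with all arrays. Igf2bp3 passed without Pp replicate 1 (0.57, adjusted p = 0.000203) and without Pp replicate 2 (1.05, adjusted p = 3.05e-07), Rps6 passed without either (adjusted p = 0.0181 and 0.0113), and Sh2b3 passed without Pp replicate 4 (-0.68, adjusted p = 0.0470). Of the list of other insulin family ligands and receptors, 6 of 9 genes had a probe set and 0 passed the filter.

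**Figure D4:**
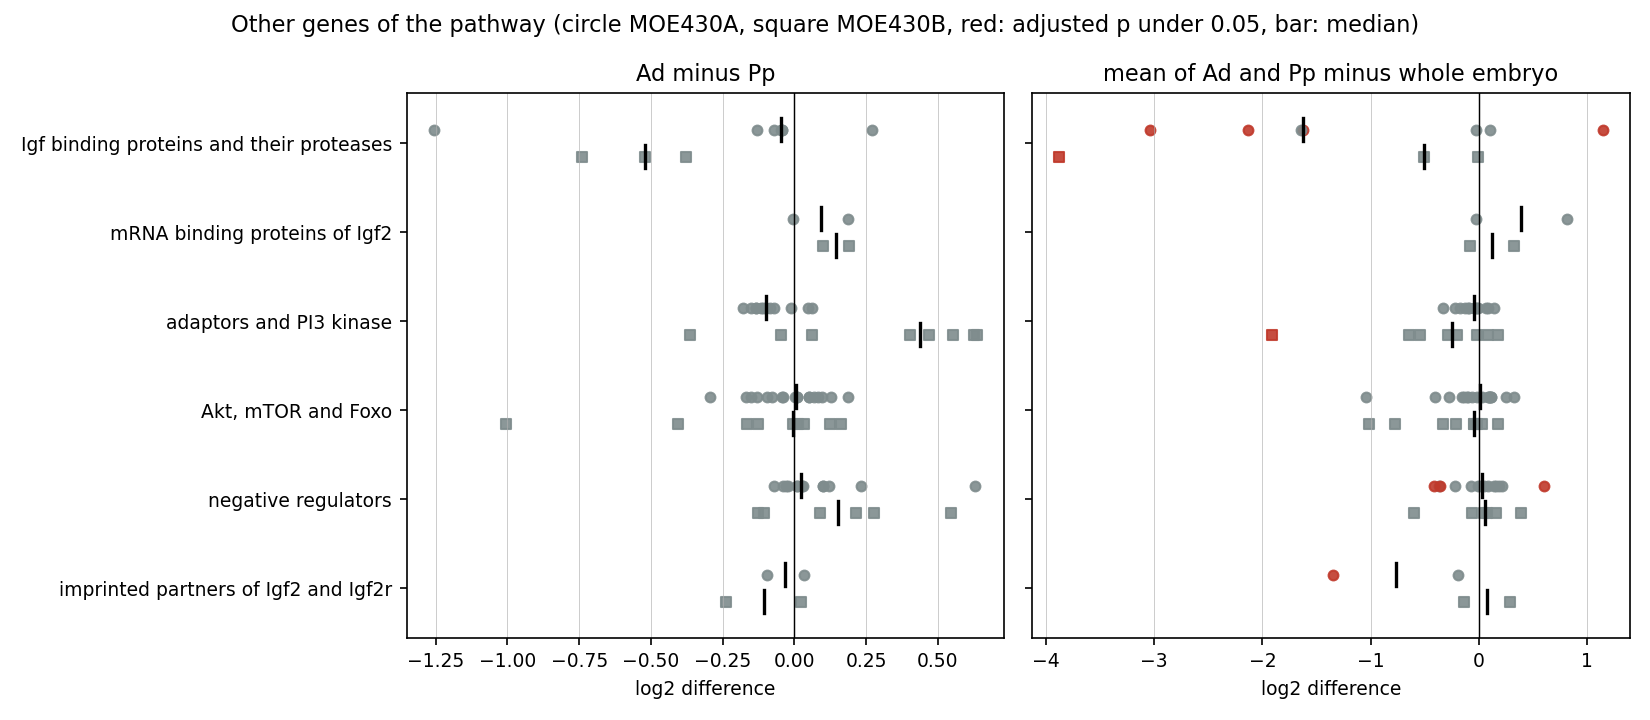
Log2 differences (x axis) of the measured genes of 6 pathway lists (y axis), each gene by its brightest probe set, with circles for MOE430A, squares for MOE430B, red for an adjusted p under 0.05 and a bar at each median. No gene is red for Ad minus Pp on the left, and the largest negative differences on the right are those of Igfbp3, at -3.03 and -3.88.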

How the data were processed

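Deposited were linear intensity values, 1 per probe set, for which the submitters' processing notes name MAS5 as the authors' tool; its version, its scaling target and a genome build are not given here. R 4.3.3 and limma 3.58.1 were run on MOE430A and MOE430B separately, because their scales differ: array medians were 590.3 to 644 on MOE430A and 56.8 to 61.0 on MOE430B. The files hold no detection calls, and the number of arrays limits the precision. Controls (64 per type) were dropped, log2 was taken after adding the 20th percentile of all values (247 and 10.5), and a filter on the mean log2 value at its 40th percentile (a signal of 464 and 37.2) left 13575 and 13506 probe sets. Each array was centred on its median, and 1 linear model over the 3 groups (lmFit, then eBayes) was used, leaving 2 residual degrees of freedom. Tests were two-sided, with Benjamini-Hochberg adjustment over all kept probe sets of that type and comparison and a threshold of 0.05. Folds are on the log2(value + pseudocount) scale, which understates changes at low signal. The code was tested on simulated data.

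Gene names came from GEO's platform annotation: on MOE430A 20393 had 1 symbol, 691 several and 1606 none, and on MOE430B 14674, 245 and 7656. Promoter sequences and gene names are RefSeq's, on GRCm38.p6; 20364 and 14499 gene identifiers matched.

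The members, marker lists and pathway lists were chosen with earlier results of these data known. Named are all members, pathway genes that passed, the gene with the largest difference each way per pathway list and comparison, and the 3 nearest genes in pattern to each of the 3 members with the largest range. A gene's value is that of its brightest probe set. Alternatives changed centring, normalization, pseudocount, filter, variance trend, replicate block and each fragment array in turn. Replicate numbers were not taken to pair the arrays, because the labels name no shared source. Deviations of same-numbered Ad and Pp arrays correlated at -0.242 on MOE430A and -0.0392 on MOE430B. The sign of such a value turns when the replicates are matched the other way, so it cannot decide whether arrays share a source.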

Additional observations from a re-analysis of the deposited data

How the results depend on the processing

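The member calls between Ad and Pp on MOE430B numbered 0 with no filter, where more low probe sets are tested, and 1 as reported. Leaving out single arrays gave 0 to 1 there (0 without Ad replicate 3 or 4) and 0 to 1 on MOE430A (1 without Pp replicate 1 or 2). For fragments against the whole embryo it gave 0 to 2 on MOE430A (2 without Pp replicate 1 or 2) and 1 to 3 on MOE430B (3 without Pp replicate 4). Without 1 array the calls over other pathway genes ranged from 0 to 6 for Ad against Pp on MOE430A, and for fragments against the whole embryo from 5 to 17 on MOE430A and 2 to 4 on MOE430B; the extremes came without Pp replicate 1 or 2, Ad replicate 1 or 2, and Pp replicate 4, and a lone array is then assumed to vary like the other pair. One pathway gene, Grb10, passed between Ad and Pp with no centring, and 1 did with the replicate block under crossed pairing, an alternative added after seeing the data. With the replicate block (Ad minus Pp only, on the 4 fragment arrays) the members called stayed at 0 on MOE430A and 1 on MOE430B, Irs4 kept its log2 difference of 1.98 (adjusted p = 0.00322), and of the named genes Dact2 alone changed its call (adjusted p = 0.0122). Over all probe sets of MOE430A, Ad against Pp gave 23 calls as reported, 46 with no centring, 47 with crossed pairing and 1 to 867 without single arrays; on MOE430B it gave 15 as reported, 2 with no filter, 29 with the replicate block and 0 to 131 without single arrays, and 26 to 30 with the stricter filter, larger pseudocount or intensity trend. Fragments against the whole embryo gave 1328 calls as reported and 272 to 3515 without single arrays on MOE430A, and 299 as reported, 196 with no filter and 91 to 1137 without single arrays on MOE430B. Over all probe sets the share of higher among the calls for fragments against the whole embryo on MOE430A was 47% as reported, 25.9% with no centring and 30.2% under cyclic loess, with Ad or Pp replicates left out between 11.8% and 57.3%, and with no filter 33.6%. On MOE430B it was 18.4% as reported, 4.59% with no filter and between 2.15% (without Ad replicate 4) and 49.4% (without Pp replicate 4) with single arrays left out.

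Signs turned only for small log2 differences, none of which passed. The largest of them were those of Igf2bp1 on MOE430B (0.19) and Irs1 (-0.14), Ad minus Pp. With no centring Ad minus Pp turned to 0.023 for Insr and 0.014 for Igf2r on MOE430A, 0.055 for the brightest Igf1r probe set on MOE430B and 0.064 for Igf2bp1 on MOE430A, which also turned under quantile normalization (0.0081), cyclic loess (0.021) and no filter (0.024). Leaving out single arrays, Ad minus Pp on MOE430A ranged from -0.12 to 0.013 for Igf2r, -0.087 to 0.14 for Igf1, -0.36 to 0.071 for Irs1, -0.11 to 0.17 for Plagl1 and -0.17 to 0.16 for Igf2bp1. On MOE430B it ranged from -0.20 to 0.036 for Igf1, -0.014 to 0.39 for Igf2bp1, and for the 3 probe sets of Igf1r from -0.20 to 0.16, -0.24 to 0.073 and -0.15 to 0.21. For fragments minus whole embryo on MOE430B the range was -0.18 to 0.022 for Igf2bp1 and -0.051 to 0.13 for Igf1r. The cause of these turns was not tested. With 2 arrays per fragment, small differences of the receptors and of Irs1 are not resolved.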
